A study of Mus musculus with 20 samples.

Results

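Germinal centre B cells, plasma cells and the states between them were compared here for 31 genes of nucleotide and one-carbon synthesis, listed by name and all present among the 16047 genes of the count matrix. The list holds 14 purine genes, 7 pyrimidine genes, 5 genes that serve purines and pyrimidines alike (called the shared arm) and 5 folate genes. The hapten-carrier antigen NP-KLH was given in Sigma Adjuvant System to C57BL/6 mice, and cells were taken 4 days after a tamoxifen gavage, on day 15 of the primary response. All cells were eYFP+ B cells and plasma cells of the lymph node; the labels name no reporter allele, no driver of it, no untreated group and no number of mice. Single cells were index-sorted into plates through 4 gates set by surface proteins, named PC, PrePC, DZ (dark zone) and LZ (light zone) in the authors' table of cells. The same table gives each cell a state by the authors' annotation (PC, prePC.Act, prePC.Mem, preMem, LZtoDZ, DZ or LZ) and a cell cycle phase. The 20 plates carry 2 sample names, C57BL/6M and C57BL/6F, 10 plates each, and animal, sex and sample name cannot be told apart.

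Dividing lymphocytes need purine and pyrimidine nucleotides for DNA and RNA, and plasma cells need sugar nucleotides and RNA for secretion. Purines are built on activated ribose up to IMP, which IMP dehydrogenase turns towards guanine nucleotides and adenylosuccinate synthase towards adenine nucleotides. Pyrimidines start with the multifunctional enzyme Cad, ribonucleotide reductase makes the deoxynucleotides, and folate carries the carbon units that purine and thymidylate synthesis use.

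Counts were made by the 5′-end method FB5P-seq and summed over the cells of a class on each plate, so each pool is 1 plate and p-values measure the spread between plates, which may be technical. A level of a plate is in CPM, the counts of a gene scaled to the total counts of the pool after edgeR's TMM factors, which were fitted within each comparison, so the same pools have slightly different levels in different comparisons. Where 3 levels are given they are the lowest, the median and the highest plate. Levels of a whole state or phase, and of a marker list, are CPM of the counts summed over all its cells with no such factor, and are not on the scale of the plate levels. Calls are at an adjusted p under 0.05 from edgeR's quasi-likelihood test with plate as a block and Benjamini-Hochberg adjustment over all genes tested. Plate totals ran from 3208858 to 11908095 counts on 19 plates and reached 5979 on plate 6, which had a pool of its own only in the comparison of C57BL/6M with C57BL/6F and whose cells also count in the sums per sample name; the median cell held 60536 counts. Plasma markers summed to 20263 CPM in cells annotated PC and to 4976 and 3634 CPM in DZ and LZ cells, while germinal centre markers summed to 125 CPM in PC cells, against 3632 and 2483 CPM in DZ and LZ cells. T cell markers summed to at most 34.2 CPM over the states, with 5 of 6 in the matrix, myeloid markers to between 1.90 and 198 CPM (4 of 6) and red cell and stromal markers to between 12.7 and 199 CPM (6 of 6). The counts of a member came from few cells: a member was seen in between 4.46% (Pfas) and 69.9% (Nme1) of cells, and the median count where it was seen lay between 4 (Nme2) and 92.5 (Rrm2).

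The promoters of the 4 members with the highest log2 fold changes among those called between S phase and G1, and of the divergent purine pair Ppat and Paics are shown beside those of Impdh1 and Impdh2, which moved in opposite directions in plasma cells and were added after their values were seen. Each runs from 250 bases before to 50 bases after a RefSeq start (GRCm38.p6), read 5′ to 3′ on the gene's strand, with capitals marking CACGTG (the E-box), CCAAT and the E2F letters TTTCCCGC, TTTCGCGC, TTTGCCGC or TTTGGCGC, on either strand. Impdh1 (chr6:29200434-29216364 in the GENCODE annotation of GRCm38) has 2 listed starts, at chr6:29216315-29216614 and chr6:29212248-29212547 on the minus strand, and Impdh2 lies at chr9:108560186-108560485 on the plus strand. Rrm2 lies at chr12:24708004-24708303 (plus), Rrm1 at chr7:102441445-102441744 (plus), Tyms at chr5:30073576-30073875 (minus) and Tk1 at chr11:117825965-117826264 (minus). Ppat, the first committed step of purine synthesis, at chr5:76951529-76951828 (minus), and Paics, at chr5:76951052-76951351 (plus), have starts 276 bases apart. By the GENCODE annotation they overlap at their 5′ ends.
Impdh1, outer start: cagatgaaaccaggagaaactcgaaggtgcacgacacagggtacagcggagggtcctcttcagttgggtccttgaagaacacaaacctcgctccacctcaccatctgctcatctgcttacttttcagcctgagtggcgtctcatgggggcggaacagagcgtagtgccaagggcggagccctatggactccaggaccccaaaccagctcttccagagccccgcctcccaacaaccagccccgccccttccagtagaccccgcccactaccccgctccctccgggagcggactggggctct
Impdh1, inner start: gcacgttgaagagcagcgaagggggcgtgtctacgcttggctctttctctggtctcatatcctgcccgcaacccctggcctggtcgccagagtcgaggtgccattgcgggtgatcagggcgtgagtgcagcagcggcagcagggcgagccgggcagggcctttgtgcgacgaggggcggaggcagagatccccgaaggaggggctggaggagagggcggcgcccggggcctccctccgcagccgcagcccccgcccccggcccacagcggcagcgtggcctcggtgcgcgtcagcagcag
Impdh2: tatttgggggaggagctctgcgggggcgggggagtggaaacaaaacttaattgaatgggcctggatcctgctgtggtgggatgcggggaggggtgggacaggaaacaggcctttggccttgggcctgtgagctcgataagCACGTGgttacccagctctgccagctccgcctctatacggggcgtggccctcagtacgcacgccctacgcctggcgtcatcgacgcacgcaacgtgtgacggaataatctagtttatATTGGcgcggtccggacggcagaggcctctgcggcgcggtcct
Rrm2: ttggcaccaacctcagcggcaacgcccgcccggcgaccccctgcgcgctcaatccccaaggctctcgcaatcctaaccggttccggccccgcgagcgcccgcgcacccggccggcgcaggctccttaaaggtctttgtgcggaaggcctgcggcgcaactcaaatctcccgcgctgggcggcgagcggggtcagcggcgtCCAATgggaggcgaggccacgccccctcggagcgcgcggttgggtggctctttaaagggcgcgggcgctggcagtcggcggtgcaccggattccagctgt
Rrm1: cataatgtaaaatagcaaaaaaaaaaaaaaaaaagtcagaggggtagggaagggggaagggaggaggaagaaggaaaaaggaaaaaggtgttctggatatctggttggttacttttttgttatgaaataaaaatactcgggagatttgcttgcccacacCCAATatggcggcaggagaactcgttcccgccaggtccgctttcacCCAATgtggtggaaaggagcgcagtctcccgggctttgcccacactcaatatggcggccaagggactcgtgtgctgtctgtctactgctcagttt
Tyms: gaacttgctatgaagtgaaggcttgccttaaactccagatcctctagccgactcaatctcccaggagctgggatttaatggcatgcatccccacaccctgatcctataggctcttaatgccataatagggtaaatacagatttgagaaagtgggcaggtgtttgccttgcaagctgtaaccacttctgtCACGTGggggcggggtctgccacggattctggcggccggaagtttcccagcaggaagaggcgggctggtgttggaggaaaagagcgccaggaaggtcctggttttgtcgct
Tk1: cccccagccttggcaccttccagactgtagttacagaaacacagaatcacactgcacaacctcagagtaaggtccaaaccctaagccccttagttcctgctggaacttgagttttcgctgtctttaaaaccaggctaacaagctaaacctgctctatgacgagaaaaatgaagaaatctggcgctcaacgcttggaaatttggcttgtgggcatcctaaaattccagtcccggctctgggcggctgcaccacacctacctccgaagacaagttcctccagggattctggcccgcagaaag
Ppat: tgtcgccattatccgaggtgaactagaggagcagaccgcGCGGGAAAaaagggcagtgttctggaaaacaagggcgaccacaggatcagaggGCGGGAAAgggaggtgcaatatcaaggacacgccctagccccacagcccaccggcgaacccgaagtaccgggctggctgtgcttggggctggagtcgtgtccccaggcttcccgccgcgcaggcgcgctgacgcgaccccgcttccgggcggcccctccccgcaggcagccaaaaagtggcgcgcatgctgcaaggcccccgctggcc
Paics: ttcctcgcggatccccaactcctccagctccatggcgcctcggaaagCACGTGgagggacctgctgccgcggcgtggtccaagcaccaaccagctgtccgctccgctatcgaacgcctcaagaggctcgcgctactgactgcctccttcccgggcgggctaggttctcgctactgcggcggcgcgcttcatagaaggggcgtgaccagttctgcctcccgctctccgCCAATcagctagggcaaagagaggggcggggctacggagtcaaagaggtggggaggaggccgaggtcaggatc
The Impdh2 and Paics windows held CACGTG and CCAAT, the Tyms window CACGTG, the Ppat window E2F letters at 2 places, the Rrm1 window CCAAT at 2 places and the Rrm2 window CCAAT at 1. Neither Impdh1 window nor that of Tk1 held these letters. Of 32851 RefSeq promoters of this length, 7.15% held CACGTG and 37.4% held CCAAT. Among the 29 members in the table, 5 held CACGTG (17.2%) and 10 held CCAAT (34.5%). The E2F letters were in 2.26% of all promoters and in those of Ppat and Prps2. Such matches describe letters only.

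Cells annotated PC differed from annotated germinal centre B cells (DZ, LZ and LZtoDZ together) in 14 members, and the changes ran both ways within each arm but the folate arm. Higher in plasma cells were Impdh1, which encodes an IMP dehydrogenase, Cad, the nucleoside diphosphate kinases Nme1 and Nme2, and Rrm2, the small subunit of ribonucleotide reductase. Lower were Impdh2, the other IMP dehydrogenase, the salvage kinases Dck and Tk1, and 6 more. Of 30 members tested, 5 were called higher and 9 lower, beside 15.1% of all 7649 genes called higher and 15.8% lower (30.9% in all). The median log2 fold change was -0.67 over the members and -0.25 over all genes. The annotation may rest on these same transcripts, and the states may then not be independent of them.

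Impdh1 had 0, 68.7 and 141 CPM in plasma cells, against 0, 0.535 and 16.3 CPM in germinal centre B cells, where 8 of 19 plates were at 0. It was higher on 18 of 19 plates, although the ranges overlapped (log2 fold change 5.41 ± 0.85, SE; edgeR adjusted p = 1.82e-05). Impdh2 went the other way, with 0, 87.3 and 169 CPM in plasma cells, against 54.5, 181 and 271 CPM in germinal centre B cells (-1.11 ± 0.34, adjusted p = 0.0147), and was lower on 18 of 19 plates. In a count of cells thinned to 10000 counts each, Impdh1 was seen in 21.2% of PC cells (95% exact interval 17.6 to 25.1%), against 1.20% of DZ cells (0.392 to 2.79%) and 0.41% of LZ cells (0.0104 to 2.26%). Impdh2 was seen in 14.0% of PC cells, against 26.7% of DZ cells. Thinning left 477 of 480 PC, 415 of 452 DZ and 244 of 278 LZ cells, and without it Impdh1 was seen in 27.5%, 1.33% and 1.08% of them, and Impdh2 in 17.1%, 30.5% and 26.3%.

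The other purine genes called were all lower in plasma cells. They were Paics and Adsl, enzymes of the path to IMP, Adss, which starts AMP synthesis from IMP, and Hprt, the salvage enzyme for hypoxanthine and guanine. Paics had 0, 124 and 254 CPM in plasma cells, against 114, 248 and 425 CPM in germinal centre B cells (log2 fold change -1.18 ± 0.36, adjusted p = 0.0122). Adss had 0, 67.7 and 125 CPM in plasma cells, against 71.4, 150.4 and 294 CPM (-1.69 ± 0.51, adjusted p = 0.0128). Both sets of ranges overlapped, with Paics lower on 17 and Adss on 17 of 19 plates. Hprt stood at -0.84 ± 0.27 (adjusted p = 0.0173) and Adsl at -0.65 ± 0.24 (adjusted p = 0.0454). Among those not called, GMP synthase Gmps had 23.5, 108 and 151 CPM in plasma cells, against 31.9, 124 and 190.0 CPM (-0.28 ± 0.24, adjusted p = 0.412). Prps1, which makes activated ribose, stood at 0.44 ± 0.21 (adjusted p = 0.127), and its paralogue Prps2 at -0.99 ± 0.52 (0.162). Ppat, Gart and Atic of the path to IMP stood at -0.69 ± 0.71, 0.15 ± 0.20 and -1.77 ± 0.81 (adjusted p = 0.498, 0.618 and 0.105), and the adenine salvage enzyme Aprt at 0.84 ± 0.52 (0.24). The arm had 1 gene higher and 5 lower of 13 tested, with a median of -0.69. Pfas, a further step towards IMP, was too low to test, with 6.73 CPM over all PC cells, 11.4 over DZ cells and 6.35 over LZ cells.

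In the pyrimidine arm, Cad was higher and Tk1 and Dut lower, with 4 of 7 genes not called and a median of -0.20. Cad had 0.52, 41.2 and 80.9 CPM in plasma cells, against 0, 0 and 29.5 CPM in germinal centre B cells, where 10 plates were at 0 (log2 fold change 5.26 ± 1.05, adjusted p = 0.000302). It was higher on 18 of 19 plates. Thymidine kinase Tk1 had 0.715, 122 and 249 CPM in plasma cells, against 155, 278 and 376 CPM (-1.51 ± 0.40, adjusted p = 0.00503), with overlapping ranges. Dut, which removes dUTP, had 1.10, 266 and 404 CPM, against 204, 398 and 688 CPM (-1.01 ± 0.32, adjusted p = 0.0192). Umps, which completes UMP, stood at 0.06 ± 0.23 (adjusted p = 0.872) and thymidylate synthase Tyms at -0.20 ± 0.35 (adjusted p = 0.713). Dhodh, the mitochondrial step, and the CTP synthase Ctps stood at -0.25 ± 0.63 and -0.20 ± 0.52 (adjusted p = 0.806 and 0.81).

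All 5 genes of the shared arm were called. Nme2 had 31.2, 58.2 and 136 CPM in plasma cells, against 3.59, 12.4 and 31.2 CPM in germinal centre B cells (log2 fold change 2.20 ± 0.33, adjusted p = 8.59e-06), and Nme1 103, 259.6 and 446 CPM, against 49.7, 126 and 236 CPM (0.99 ± 0.14, adjusted p = 2.03e-06). Each was higher on all 19 plates, and the plates overlapped between classes for Nme1 but not for Nme2. Nme1 (chr11:93956979-93968521) and Nme2 (chr11:93949814-93956259) adjoin and share a readthrough gene, Gm20390, on their strand, so how counts were split between them is uncertain. Dck, which phosphorylates deoxycytidine and other deoxynucleosides, had 3.92, 87.9 and 233 CPM in plasma cells, against 73.0, 299 and 512 CPM (-1.73 ± 0.31, adjusted p = 9.42e-05), and was lower on 18 of 19 plates. The subunits of ribonucleotide reductase parted: the large subunit Rrm1 had 0, 135 and 264 CPM, against 66.7, 309 and 423 CPM (-1.08 ± 0.33, adjusted p = 0.0141), and Rrm2 had 314, 1028 and 1699.7 CPM, against 230.0, 701 and 1144 CPM (0.40 ± 0.14, adjusted p = 0.0267). The Rrm2 call was lost in 6 of 11 alternative analyses, among them DESeq2, thinned cells and the fit without plate 2. Pools of at least 10 cells, another of the 11, were the same as in the main fit. No call was made in the folate arm, where the mitochondrial enzymes Shmt2, Mthfd2 and Mthfd1l stood at 0.31 ± 0.35, -0.90 ± 0.53 and -2.13 ± 1.15 (adjusted p = 0.545, 0.219 and 0.174) and the cytosolic Shmt1 and Mthfd1 at -1.15 ± 0.81 and -0.82 ± 0.81 (adjusted p = 0.313 and 0.481).

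**Figure D1:**
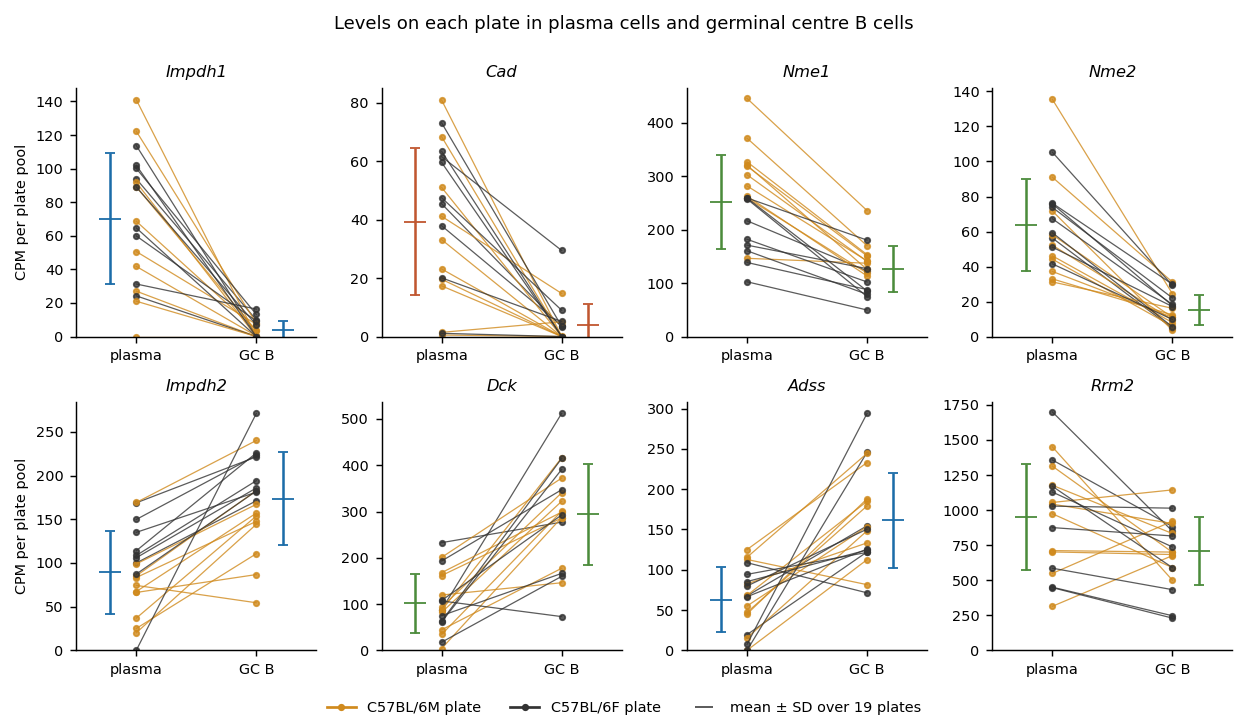
Each panel plots the level (CPM) of 1 gene in the plasma cell pool (left) and the germinal centre B pool (right) of each of 19 plates, with lines joining a plate, orange for C57BL/6M and black for C57BL/6F, and the mean with its SD. Nme2 pools do not overlap between classes, Impdh1 and Cad sit near 0 in most germinal centre B pools, and Dck, Impdh2 and Adss are lower in plasma cells on most plates.

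**Figure D2:**
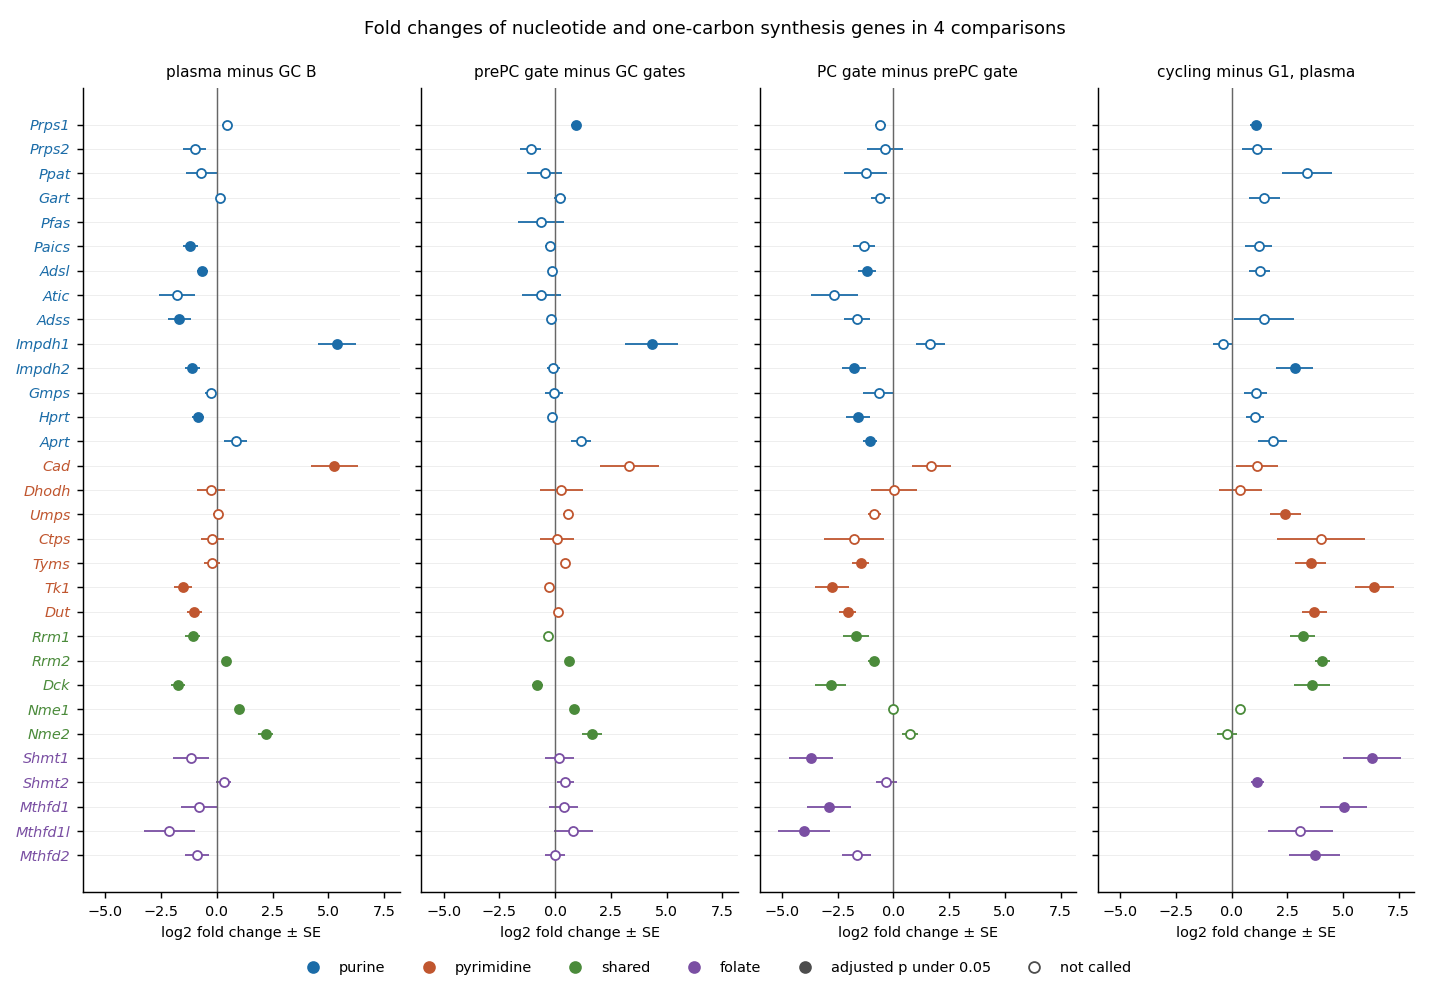
The log2 fold change of each of the 31 genes that could be tested is plotted with its SE in 4 comparisons, with colour for the arm and filled points for an edgeR adjusted p under 0.05. Impdh1, Nme1 and Nme2 are filled on the positive side in plasma cells and in the PrePC gate, and cycling plasma cells have filled points on the positive side alone. Under spike-in scaling, which is not plotted, Impdh1 and Nme2 turn positive in cycling plasma cells. In the PrePC gate Dck, Paics, Adsl, Adss, Impdh2, Hprt, Tk1 and Rrm1 turn positive under it.

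Other measures moved with this comparison. Of the cells annotated PC, 21.3% were in S or G2M, against 51.1% of DZ, 41.0% of LZ and 81.3% of LZtoDZ cells. Of 13 replication markers 8 were lower in plasma cells and none higher, Pcna with 342 ± 143 CPM, against 562.5 ± 138 CPM (SD, n = 19 plates). Myeloid markers summed to 100.9 CPM in PC cells, with 28.5 CPM in DZ, 40.8 CPM in LZ and 6.02 CPM in LZtoDZ cells, Csf1r being at 0 in those germinal centre states; the marker of this list that could be tested, Cd68, was called higher in plasma cells (2.15). Of the red cell and stromal markers, which summed to 36.6 CPM in PC cells, 85.6 in DZ, 128 in LZ and 21.6 in LZtoDZ cells, Hbb-bt was called lower (-7.86) and 1 of 2 tested was not called; Hbb-bs, Hba-a1, Col1a1 and Pdgfrb were at 0 in PC cells. The part of such cells in the results was not tested. Scaling by spike-in RNA instead of total counts moved the median of all genes to -0.06 and left the sign of each called member as it was. It called 5 members higher and 3 lower, beside 2148 of 7649 genes called, 1275 of them higher. On C57BL/6F plates alone 5 members were called higher and 1 lower, beside 1013 of 7387 genes called, 572 of them higher.

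Restricted to cells in G1, plasma cells had higher Impdh1, Nme1, Nme2 and Rrm2 than germinal centre B cells, while Dck, Tk1, Impdh2, Adss and the cytosolic folate enzyme Mthfd1 were lower. Of 25 members tested on 19 plates, 4 were called higher and 5 lower, beside 16.4% and 11.9% of 5538 genes (28.4% in all). The median was -0.58 over the members and -0.01 over all genes. Impdh1 had 0, 81.0 and 239.9 CPM in G1 plasma cells, against 0, 0 and 21.3 CPM in G1 germinal centre B cells, of which 15 plates were at 0 (log2 fold change 7.74 ± 0.92, adjusted p = 2.74e-07). Rrm2 had 23.8, 148 and 359 CPM, against 0, 3.73 and 208 CPM (3.84 ± 0.72, adjusted p = 0.000136), and was higher on all 19 plates. Dck had 0, 32.1 and 238 CPM, against 58.8, 213 and 370.2 CPM (-3.96 ± 0.88, adjusted p = 0.000972). The other lower genes stood at -2.47 ± 0.76 (Impdh2, adjusted p = 0.0146), -2.61 ± 0.90 (Adss, 0.0298), -4.14 ± 1.26 (Mthfd1, 0.0145) and -4.08 ± 1.26 (Tk1, 0.015). Cad, Ctps, Atic, Pfas, Shmt1 and Mthfd1l were too low to test in G1.

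Counted as cells, with 10000 counts each, Rrm2 was seen in 18.9% of 376 G1 plasma cells (15.1 to 23.2%), against 5.41% of 351 G1 germinal centre B cells (3.29 to 8.32%), and Impdh1 in 18.6% (14.8 to 22.9%), against 0.855%. In the opposite direction Impdh2 was seen in 4.79% of G1 plasma cells (2.86 to 7.46%), against 18.2% (14.3 to 22.7%), and Dck in 5.59%, against 33.0%. Without thinning the shares were 25.7%, against 14.0%, for Rrm2, 22.5%, against 1.27%, for Impdh1, 7.14%, against 20.8%, for Impdh2, and 7.67%, against 34.5%, for Dck. Median counts per cell before thinning were 62707 in G1 plasma cells and 39792.5 in G1 germinal centre B cells. Replication markers were lower in G1 plasma cells in 6 of 10 tested and higher in none.

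The sort gates were set by surface proteins and not by these transcripts. Cells of the PrePC gate had more Impdh1, Nme1, Nme2, Prps1 and Rrm2 than the DZ and LZ gates summed, and less Dck. Of 31 members 5 were called higher and 1 lower, beside 7.09% and 8.14% of 7150 genes (15.2% in all), with medians of 0.13 over the members and -0.19 over all genes. Rrm2 had 458, 1110.4 and 2204 CPM in the PrePC gate, against 244, 791 and 1263 CPM in the germinal centre gates (log2 fold change 0.61 ± 0.11, adjusted p = 0.000154). Prps1 had 32.1, 202 and 327 CPM, against 36.1, 99.4 and 212 CPM (0.92 ± 0.21, adjusted p = 0.0024), and Nme1 102, 219.6 and 497 CPM, against 54.5, 125 and 243 CPM (0.85 ± 0.15, adjusted p = 0.000115). Each of these 3 was higher on 18 of 19 plates, with overlapping ranges. Impdh1 had 0, 39.9 and 106 CPM, against 0, 0.378 and 27.4 CPM (4.33 ± 1.19, adjusted p = 0.0123), and was higher on 14 of 19. Nme2 stood at 1.66 ± 0.46 (adjusted p = 0.0116) and Dck at -0.80 ± 0.23 (adjusted p = 0.0189). Under spike-in scaling, which moved the median of all genes to 0.81, 19 members were called higher and 0 lower, and Dck stood at 0.21. That scaling called 2481 of 7150 genes, 2334 of them higher.

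The PrePC gate was a mixture: of its 282 cells 128 were annotated PC, 63 DZ, 29 prePC.Act, 27 prePC.Mem, 23 LZ, 11 LZtoDZ and 1 preMem. Cells in S or G2M made up 51.1% of it, against 44.3% of the DZ gate and 50.7% of the LZ gate. With G1 cells alone (17 plates, an analysis added after the data were seen) edgeR called none of 22 members tested, 5 had an unadjusted p under 0.05, and 505 of 4313 genes were called; DESeq2 was not run on G1 cells of the gates. Rrm2 then stood at 2.25 ± 0.82 (adjusted p = 0.0731), Nme2 at 1.97 (0.11), Nme1 at 0.60 (0.424) and Dck at -2.36 (0.105).

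Between the PC gate and the PrePC gate every call by edgeR was downward. Impdh2, Adsl, Hprt and Aprt of the purine arm, Tyms, Tk1 and Dut of the pyrimidine arm, Rrm1, Rrm2 and Dck of the shared arm, and Shmt1, Mthfd1 and Mthfd1l of the folate arm were lower in the PC gate, 13 of 30 tested. This stands beside 9.69% of 6564 genes called lower and 8.42% higher (18.1% in all), and medians of -1.29 over the members and -0.27 over all genes. Dut had 1.26, 122 and 419.6 CPM in the PC gate, against 99.8, 486 and 724 CPM in the PrePC gate (log2 fold change -2.05 ± 0.38, adjusted p = 0.000276), and was lower on all 19 plates. Rrm2 had 47.6, 789 and 1414 CPM, against 421, 1052 and 2144 CPM (-0.89 ± 0.23, adjusted p = 0.00845). Tyms had 0, 165 and 407 CPM, against 204, 359 and 595 CPM (-1.47 ± 0.39, adjusted p = 0.00866). Ranges overlapped for all of these but their medians lay lower in the PC gate.

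Dck fell to 0, 37.3 and 260.4 CPM in the PC gate, against 61.8, 166 and 449 CPM (-2.82 ± 0.71, adjusted p = 0.0055), and Impdh2 to 0, 52.2 and 146 CPM, against 0.969, 195 and 295 CPM (-1.77 ± 0.52, adjusted p = 0.0195). Shmt1, the cytosolic serine hydroxymethyltransferase, had 0, 0.948 and 75.7 CPM, against 0, 69.5 and 197 CPM (-3.71 ± 0.98, adjusted p = 0.0088). The purine calls Adsl, Hprt and Aprt stood at -1.20 ± 0.40, -1.59 ± 0.55 and -1.03 ± 0.31 (adjusted p = 0.0377, 0.0442 and 0.0223), Tk1 and Rrm1 at -2.76 ± 0.77 and -1.68 ± 0.57 (0.012 and 0.0388), and Mthfd1l at -4.03 ± 1.16 (0.0171). The Mthfd1 call (-2.89 ± 0.97, adjusted p = 0.0399) was lost without plate 2. Nme1 and Nme2 were not called (-0.02 ± 0.16 and 0.76 ± 0.36, adjusted p = 0.966 and 0.155), nor was Impdh1 (1.66 ± 0.66, adjusted p = 0.0836), which was higher on 17 of 19 plates. Cycling cells were 12.2% of the PC gate, against 51.1% of the PrePC gate, and all 12 replication markers tested were lower. In G1 cells alone edgeR called none of 22 members, 2 had an unadjusted p under 0.05, and 349 of 4226 genes were called. Dut and Rrm2 stood at 0.91 and 0.68 (adjusted p = 0.83 and 0.793), on the other side of 0 from the values over all phases, with Impdh2 at -2.54 (0.28) and Dck at -3.14 (0.187). Over all phases again, scaling by spike-in moved the median of all genes to -1.25 and gave 22 members lower and 0 higher. It called 2699 of 6564 genes, 183 of them higher. DESeq2 gave 20 members lower and 3 higher, beside 2364 of 6564 genes called, 773 of them higher.

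Against the same germinal centre gates, the PC gate had 4 members higher and 12 lower of 30, beside 13.6% and 21.3% of 6865 genes (34.9% in all), with medians of -1.32 over the members and -0.50 over all genes. These pools are shared with the preceding comparisons, and each value stands by itself. Impdh1 was at 5.99 ± 0.89 (adjusted p = 7.27e-06), Cad at 5.23 ± 1.10 (0.000556), Nme2 at 2.45 ± 0.43 (5.82e-05) and Nme1 at 0.87 ± 0.18 (0.000519). Dck was lower on all 19 plates, with 0, 39.0 and 243 CPM in the PC gate, against 69.9, 310.4 and 473 CPM (-3.45 ± 0.62, adjusted p = 9.23e-05). Impdh2 was at -1.78 ± 0.42 (adjusted p = 0.00152), and the other genes called lower were Paics, Adsl, Atic, Adss and Hprt of the purine arm, Tk1 and Dut, Rrm1, and Shmt1 and Mthfd1l, between -3.98 (Mthfd1l) and -1.21 (Adsl). Rrm2 was not called (-0.26 ± 0.22, adjusted p = 0.378), but in G1 cells alone it was higher in the PC gate (3.65 ± 0.92, adjusted p = 0.00304). The same G1 cells had 4 members higher and 5 lower of 24, beside 1526 of 5206 genes, with Impdh1 at 7.08 ± 1.03 (adjusted p = 7.41e-06), Impdh2 at -3.09 (0.00345) and Dck at -5.10 (0.000131).

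Within germinal centre B cells, S phase was set against G1 on 18 plates. Phase was assigned by the authors, possibly from some of these genes, so the contrast describes the phases as called. The ribonucleotide reductase subunits Rrm2 and Rrm1, the thymidylate genes Tyms, Tk1 and Dut, Umps and Paics were higher in S phase, 7 of 28 tested, beside 3.41% of 5335 genes called higher and 2.38% lower (5.79% in all). The median was 1.39 over the members and -0.11 over all genes, and 25 of 28 values were positive. By arm, 4 of 6 pyrimidine, 2 of 5 shared, 1 of 12 purine and 0 of 5 folate genes were called, with medians of 2.72, 0.61, 1.10 and 1.41.

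Rrm2 had 569, 1478 and 2629 CPM in S phase, against 0, 4.07 and 237 CPM in G1, with no overlap (log2 fold change 7.04 ± 0.56, adjusted p = 1.15e-09). Rrm1 had 251, 549 and 848 CPM, against 1.07, 84.7 and 178 CPM, again with no overlap (3.25 ± 0.45, adjusted p = 1.02e-05). Tyms, on 18 of 18 plates higher, had 188, 449.8 and 971 CPM, against 0, 51.8 and 256 CPM (3.58 ± 0.64, adjusted p = 0.000326). Ranges also overlapped for Dut, with 168, 737 and 1296 CPM in S phase, against 0, 157 and 508 CPM (2.21 ± 0.44, adjusted p = 0.00104). Tk1, Umps and Paics stood at 3.13 ± 0.73, 2.32 ± 0.65 and 1.44 ± 0.37 (adjusted p = 0.00623, 0.0279 and 0.0132). Impdh2, Mthfd1, Nme1 and Dck were not called and stood at 1.03 ± 0.33, 0.83 ± 0.91, 0.37 ± 0.31 and 0.38 ± 0.29 (adjusted p = 0.0724, 0.815, 0.715 and 0.67). Total counts per cell differ by phase: spike-in scaling moved the median of all genes to 0.89.

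G2M cells against the same G1 pools had 4 of 25 members higher and none lower, beside 4.03% of 5242 genes higher and 2.5% lower (6.52% in all), with medians of 0.57 over the members and -0.06 over all genes. Rrm2 had 309, 670.3 and 1184 CPM in G2M, against 0, 3.96 and 239 CPM in G1, with no overlap (6.12 ± 0.59, adjusted p = 3.6e-08). Tyms, Tk1 and Rrm1 stood at 3.31 ± 0.71, 3.06 ± 0.79 and 2.88 ± 0.48 (adjusted p = 0.00205, 0.0129 and 9.5e-05).

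**Figure D3:**
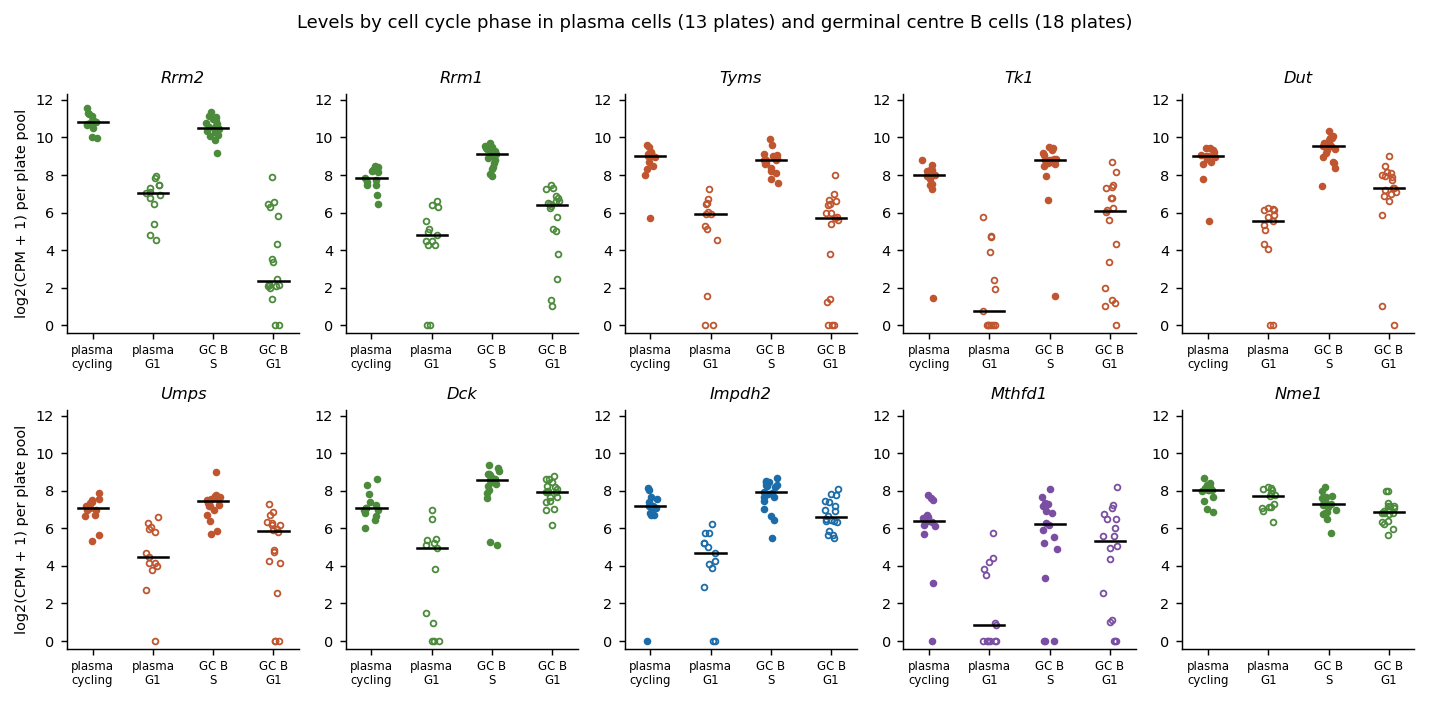
The level, log2(CPM + 1), of 10 members is plotted for each plate in cycling plasma cells, G1 plasma cells, S phase germinal centre B cells and G1 germinal centre B cells, with a black line at the median. Rrm2, Tk1 and Dut lie higher in cycling cells than in G1 cells of the same class, and the median of Rrm2 in G1 lies higher in plasma cells than in germinal centre B cells.

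Cycling plasma cells (S and G2M) were compared with G1 plasma cells on 13 plates, and 13 of 29 members were higher and none lower, beside 7.78% of 5696 genes higher and 8.2% lower (16% in all). The folate arm had 4 of 5 genes higher here (Shmt1, Shmt2, Mthfd1, Mthfd2), the pyrimidine arm 4 of 7 (Tyms, Tk1, Dut, Umps), the shared arm 3 of 5 (Rrm1, Rrm2, Dck) and the purine arm 2 of 12 (Impdh2, Prps1). The median was 1.84 over the members and -0.04 over all genes. Tk1 had 1.69, 258 and 437 CPM in cycling plasma cells, against 0, 0.662 and 53.5 CPM in G1 plasma cells (log2 fold change 6.40 ± 0.88, adjusted p = 3.02e-05). Rrm2 had 1010.1, 1802 and 3061 CPM, against 22.5, 129 and 243 CPM, with no overlap (4.07 ± 0.32, adjusted p = 4.86e-08). Shmt1 had 0, 69.7 and 193 CPM, against 0, 0 and 26.4 CPM (6.31 ± 1.31, adjusted p = 0.00224). The first and last of these overlapped between phases, with medians near 0 in G1.

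Mthfd1, the cytosolic enzyme that interconverts folate carbon units, had 0, 82.2 and 221 CPM in cycling plasma cells, against 0, 0.776 and 53.3 CPM (5.04 ± 1.06, adjusted p = 0.0025). Impdh2 had 0, 143 and 279 CPM, against 0, 25.2 and 75.4 CPM (2.83 ± 0.84, adjusted p = 0.026), and Dck 63.9, 133 and 393 CPM, against 0, 30.3 and 127 CPM (3.62 ± 0.80, adjusted p = 0.00351). Impdh1, Cad, Nme1 and Nme2 were not called between these phases. Impdh1 had 13.6, 67.2 and 123 CPM in cycling plasma cells, against 6.37, 76.0 and 240.5 CPM (-0.39 ± 0.44, adjusted p = 0.64), Nme1 stood at 0.39 ± 0.17 (adjusted p = 0.142) and Nme2 at -0.22 ± 0.44 (adjusted p = 0.815). Among the other genes called, Dut had 45.7, 513 and 689.7 CPM in cycling plasma cells, against 0, 46.0 and 74.0 CPM (3.70 ± 0.56, adjusted p = 9.04e-05), and Prps1, Umps, Tyms, Rrm1, Mthfd2 and Shmt2 stood at 1.10 ± 0.27, 2.41 ± 0.69, 3.54 ± 0.68, 3.18 ± 0.57, 3.72 ± 1.15 and 1.15 ± 0.28 (adjusted p = 0.00682, 0.0209, 0.00101, 0.000463, 0.0333 and 0.00641). A missed call does not show equal levels, and under spike-in scaling, which moved the median of all genes to 1.60, Impdh1 stood at 1.23 and Nme2 at 1.41. Of 7 plasma markers 6 were lower in cycling plasma cells.

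Whether the cycling contrast itself differed between plasma and germinal centre B cells was tested as an interaction over 19 plates. Of 31 members tested only Rrm2 was called (log2 difference -2.38 ± 0.60, adjusted p = 0.0122), a smaller contrast in plasma cells, beside 2.65% of 8458 genes called (0.627% higher and 2.02% lower); the call was lost in 3 of 9 other analyses, namely without the plate block, on C57BL/6M plates alone and under spike-in scaling, where it stood at -1.62. Summed over cells, Rrm2 reached 2170 CPM in S and 1559 CPM in G2M plasma cells with 120.2 CPM in G1 plasma cells, and 1533, 726 and 25.6 CPM in germinal centre B cells of the same phases. It was seen in 47 of 47 thinned S phase plasma cells (92.5 to 100%), and in 78.4% of S phase germinal centre B cells (71.7 to 84.1%). S phase cells held a median of 2837 genes in plasma cells and 1818 in germinal centre B cells before thinning. Shmt1 (4.58 ± 1.50, adjusted p = 0.0858) and Impdh1 (-3.48 ± 1.31, adjusted p = 0.16) were not called.

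The pre-plasma states were small, 29 prePC.Act and 63 prePC.Mem cells, and were summed per sample name into 2 sums a state. On data simulated for prePC.Act against germinal centre B cells, the test recovered none of the 2-fold or 4-fold changes. A missed call of such a size therefore says nothing here. The other comparisons of these sums were not simulated. Of 31 members none was called by edgeR between prePC.Act and germinal centre B cells, and 10 had an unadjusted p under 0.05. By edgeR 2.36% of 11037 genes were called (1.41% higher and 0.942% lower). DESeq2 called 9 members, beside 1165 of the 11037 genes. The levels in prePC.Act were 1377 CPM for Rrm2, 335 for Impdh2, 329 for Prps1, 519 for Tyms and 241 for Umps. In PC cells the same genes had 831.6, 82.9, 148, 233 and 83.1 CPM, and in DZ cells 669, 152, 117, 256 and 83.8 CPM. Pools per plate of at least 3 cells gave 2 calls over germinal centre B cells, beside 462 of 10086 genes. They were Cad (5.08 ± 1.06, edgeR adjusted p = 0.000528) and Impdh1 (4.17 ± 0.93, 0.00132). With TMM factors, Cad sums of C57BL/6M and C57BL/6F were 39.5 and 51.8 CPM in prePC.Act, 42.6 and 50.2 in PC and 2.47 and 7.82 in DZ cells. Those of Impdh1 were 29.8 and 46.6, 71.0 and 78.5, and 0.0574 and 9.25 CPM.

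The median log2 fold change of prePC.Act over germinal centre B cells was 0.78 over the members and -0.06 over all genes, with 26 of 31 values positive. Under spike-in scaling the median of all genes was 1.69, and prePC.Act cells held a median of 112 counts per spike-in count, against 29.5 in PC and 24.5 in DZ cells. Of prePC.Act cells 89.7% were in S or G2M, against 21.3% of PC cells. Between prePC.Act and PC none of 31 members was called by edgeR and 10 had an unadjusted p under 0.05. By edgeR 0.906% of all genes were called (0.0634% higher and 0.843% lower). DESeq2 called 9 members, beside 609 of 11037 genes.

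The cytosolic folate gene Shmt1 had its highest sums in prePC.Act and LZtoDZ cells. It was seen in 58.6% of thinned prePC.Act cells (38.9 to 76.5%) and 58.3% of LZtoDZ cells (43.2 to 72.4%), against 5.24% of PC, 3.86% of DZ and 4.51% of LZ cells. Without thinning it was in 65.5% of prePC.Act and 64.6% of LZtoDZ cells, against 8.12% of PC, 5.31% of DZ and 7.55% of LZ cells. Its counts came in clumps, with a median of 33 where it was seen, so thinning does little to even out detection. Cells held a median of 3691 genes in prePC.Act and 3020 in LZtoDZ, against 1510 in PC, 1425 in DZ and 1148.5 in LZ. The part of this in the shares was not tested. Shmt1 sums were 167 CPM in prePC.Act and 249 in LZtoDZ, with 35.1 in PC, 22.9 in DZ and 49.5 in LZ cells. LZtoDZ cells were 81.3% in S or G2M. Shmt1 overlaps Smcr8 on the opposite strand, as Tk1 does Afmid, Impdh2 does Ndufaf3 and Shmt2 does Ndufa4l2. The members Ppat and Paics overlap each other on opposite strands, at their 5′ ends. Whether counting used strand is not given in the sources used here, so reads of such partners may not have been told apart. Between LZtoDZ and LZ sums none of 31 members was called by edgeR and 5 had an unadjusted p under 0.05. By edgeR 0.417% of genes were called (0.00906% higher and 0.408% lower). DESeq2 called 4 members, beside 308 of 11037 genes.

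**Figure D4:**
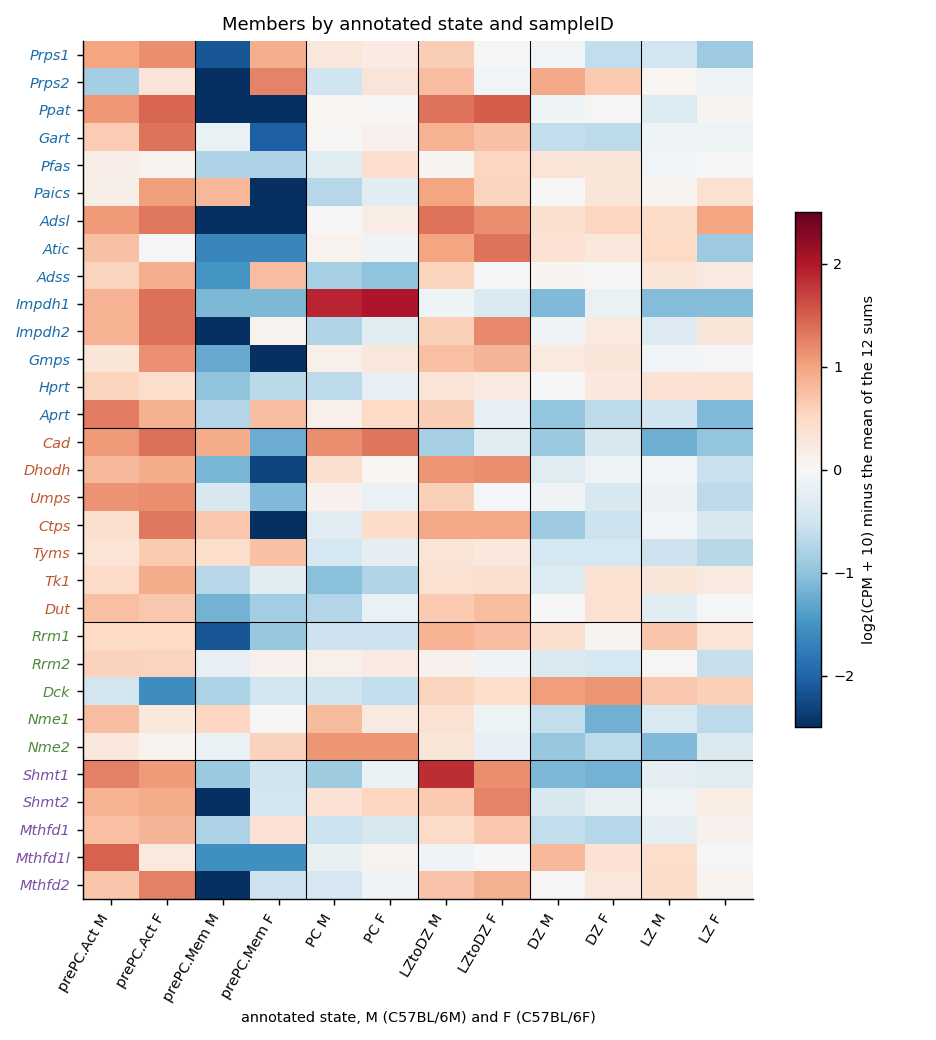
The heat map shows, for each of the 31 genes, log2(CPM + 10), with TMM factors, of the sum of a state in each sample name minus the gene's mean over the 12 sums; columns run prePC.Act, prePC.Mem, PC, LZtoDZ, DZ and LZ, with C57BL/6M before C57BL/6F. Impdh1 and Nme2 stand high in the PC columns, Impdh2 and Shmt1 in the prePC.Act and LZtoDZ columns, and Dck in the LZtoDZ, DZ and LZ columns.

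In prePC.Mem, 3 purine members and 1 folate member were called lower than in PC: Adsl, Ppat, Atic and Mthfd1l, beside 5.38% of genes lower and 0.67% higher (6.05% in all). The Atic call was lost under DESeq2's size factors, without the low-count filter and in thinned cells. The Mthfd1l call was lost in the last 2 of these. Those of Adsl and Ppat were lost in none of 9 other analyses. Among the 9, each sample name alone gave a direction but no test. All 4 had 0 counts of 1577711 in prePC.Mem, where 3 counts over the summed state would be 1.90 CPM. PC levels were 61.3-fold above that level for Adsl, 23.3-fold for Ppat, 9.76-fold for Atic and 8.29-fold for Mthfd1l. Impdh1 was also at 0 in prePC.Mem but not called, with 65.2 CPM in PC cells, 34.3-fold above that level. Counts came in clumps, with medians of 38 (Adsl), 26 (Ppat), 5 (Atic), 17.5 (Mthfd1l) and 17 (Impdh1) in cells where the gene was seen. The folds are therefore not lower bounds for the state. These cells had a median of 16638 counts and 376 genes, and the median log2 fold change of all genes was -1.50, with -0.73 over the members. Rrm2 had 684.5 CPM in prePC.Mem, Nme1 196 and Tyms 430.

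No member was called between the zones of the germinal centre. Between DZ and LZ cells on 19 plates, DESeq2 called 2 of 28 members tested, beside 569 of 5447 genes. By edgeR 0 members were called, beside 1.41% of 5447 genes (0.845% higher and 0.569% lower), and 3 members had an unadjusted p under 0.05. The 3 were Dck (0.57 ± 0.21, adjusted p = 0.246), with 102, 416 and 637 CPM in DZ cells, against 79.7, 273 and 631 CPM in LZ cells, Dhodh (3.89 ± 1.41, adjusted p = 0.252), and Mthfd1l (3.57 ± 1.54, adjusted p = 0.372). Summed over all cells of a state, Dhodh had 33.6 CPM in DZ cells, against 31.5 CPM in LZ cells. Mthfd1l had 36.1 CPM, against 25.1 CPM. These sums do not show differences as large as the log2 fold changes of Dhodh and Mthfd1l over plates. The median was 0.28 over the members and 0.44 over all genes.

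No member was called between C57BL/6M and C57BL/6F plates. In germinal centre B cells edgeR called none of 29, beside 0.552% of all genes (0.539% higher and 0.0135% lower), and 2 had an unadjusted p under 0.05. DESeq2 called 0 there, beside 101 of 7423 genes. In plasma cells edgeR called none of 30, beside 0.956% of all genes (0.873% higher and 0.0831% lower), and 1 had an unadjusted p under 0.05. There DESeq2 called 0, beside 109 of 7216 genes. Nme1 had the lowest edgeR p in both classes, with 134, 286 and 433 CPM in C57BL/6M plasma cells, against 93.9, 168 and 239.6 CPM in C57BL/6F plasma cells (log2 fold change 0.65 ± 0.22, adjusted p = 0.334). In germinal centre B cells it had 129, 159.6 and 265 CPM, against 0, 98.2 and 205 CPM (0.58 ± 0.24, adjusted p = 0.856). The 0 was on plate 6, which held 5979 counts in all.

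Further genes of the same pathways were listed with the members, and those with the largest called changes are given. Against germinal centre B cells, plasma cells had less Pnp2, a purine nucleoside phosphorylase (3.35 ± 6.86, against 39.6 ± 21.9 CPM; log2 fold change -6.23 ± 1.13, adjusted p = 0.0001), and less Rrm2b, the alternative small subunit of ribonucleotide reductase (-4.42 ± 0.87, adjusted p = 0.000259). They had more Mtr, methionine synthase (2.64 ± 0.996, adjusted p = 0.0496). In all, 2 of 16 further purine genes were higher and 5 lower, 0 and 4 of 11 pyrimidine genes, and 2 and 1 of 6 shared genes. This stands beside 15.1% of all 7649 genes called higher and 15.8% lower (30.9% in all). Mtr and Phgdh of the folate and serine list were higher. Phgdh, which starts serine synthesis, was higher in the PrePC gate (451 ± 180, against 227 ± 99.97 CPM in the germinal centre gates; 0.998 ± 0.13, adjusted p = 2.16e-06).

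Psat1, an enzyme of serine synthesis, was higher in cycling plasma cells, with 192 ± 98.3 CPM, against 26.3 ± 31.9 CPM in G1 plasma cells (4.00 ± 0.94, adjusted p = 0.0053, SD over 13 plates). Psph, the last step of that synthesis, and the mitochondrial serine carrier Sfxn1, both named after their values were seen, were also higher, at 0.90 ± 0.28 and 0.95 ± 0.23 (adjusted p = 0.0318 and 0.00636). Myc was lower in the PC gate than in the PrePC gate (-2.50 ± 0.78, adjusted p = 0.0262) and not called between annotated plasma and germinal centre B cells (-1.16, adjusted p = 0.266). In the DZ, adenosine deaminase Ada (1.32 ± 0.26, adjusted p = 0.0035) and the UMP and CMP kinase Cmpk1 (0.92 ± 0.24, adjusted p = 0.0485) were higher than in the LZ.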

How the data were processed

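Per the submitters' processing notes, reads were aligned with STAR 2.5.3a to mm10 and counted with HTSeq 0.9.1. Per the labels' protocols, cDNA was preamplified for 22 cycles before FB5P-seq libraries were made. The authors deposited raw counts per gene and cell, and a table of cells with plate, gate, state, phase and the fraction of spike-in counts as a deposited value; 57 other columns of that table were not used. All 1367 cell names were distinct. The largest count was 1024, reached in 95 cells and by no member. It equals the number of tags of 5 bases.

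Counts were summed per plate and class over at least 5 cells and tested with edgeR 4.0.16 (TMM factors, filterByExpr, quasi-likelihood test, plate as block; limma 3.58.1, R 4.3.3) across all genes. A log2 fold change is the class named first over the second, and its SE is its size over the root of F. Pre-plasma and LZtoDZ states were tested on 2 sums, 1 per sample name. Alternatives were DESeq2 1.42.0, its size factors, no filter, no block, 1 sample name alone, no immunoglobulin genes, pools of at least 10 cells and cells thinned to 10000 counts, which left out 96 cells. Spike-in scaling, G1 cells of the gates and the fit without plate 2 were added after the data were seen. Intervals of shares are 95% Clopper-Pearson intervals, and a count of 0 was set at 3 counts. Both cover counting error only, and the 3 counts take no account of counts clumped in few cells. Sums, shares and figures used python 3.11.15, numpy 2.4.6, scipy 1.17.1, pandas 2.3.3 and matplotlib 3.10.9.

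The members and all lists were chosen with earlier results of these data known. All 31 members were to be named, and of other pathway genes at most 4 per comparison by the size of a called change, with Myc, Mki67 and Pcna as markers; 1 gene of the folate and serine list is not reported here. On simulated counts the test of plasma against germinal centre B cells recovered 43% of 4-fold and 20% of 2-fold changes over 7180 genes; that of S against G1 recovered 40% and 8% over 4771.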

Additional observations from a re-analysis of the deposited data

Results flagged for a closer look

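The difference between the cycling contrasts of Rrm2 in plasma and in germinal centre B cells was itself tested and stood at -2.38 on the log2 scale (edgeR adjusted p = 0.0122). The call was lost without the plate block, on C57BL/6M plates alone and under spike-in scaling, 3 of 9 other analyses. Among plates of 1 sample name, with plate 6 left out, 13 of 118 groups of plate levels held a plate far from the others by Dixon's criterion. Chance meets that criterion in about 1 of 20 groups where values are normally distributed. Sparse levels such as those of Pfas and Mthfd1l need not be, so the rate for these groups is not known.

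In germinal centre B cells Prps2 had 17.3 CPM on plate 2, with the next plate of C57BL/6F at 75.4 CPM. Of the other extremes there, C57BL/6M plates held Pfas at 121 CPM and Nme1 at 265 CPM on plate 14, and Adsl at 487 CPM and Tyms at 558 CPM on plate 12. Dhodh reached 103 CPM on plate 10 of C57BL/6F.

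In plasma cells Impdh2, Ctps and Shmt2 were each at 0 CPM on plate 2, whose pool held 14 cells. Gart had 230.1 CPM on plate 1 and 206 CPM on plate 12. Shmt2 reached 437 CPM on plate 11 and Mthfd1l 86.9 CPM on plate 13.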

How the results depend on the processing

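Single-gene results were counted under settings other than spike-in scaling, G1 cells of the gates and the fit without plate 2. Of these, 623 were kept, 108 lost the call and 3 changed sign, and the cause was not tested. Among the 623, sums of each sample name alone (4 results each) kept direction with no test. Pools of at least 10 cells were those of the main fit for plasma against germinal centre B cells, also in G1, and for the gates. No result of those comparisons could change under that setting. Counts of called members that moved by over 1.5 times were as follows. Under DESeq2 they were 14 of plasma against germinal centre B cells in G1, 2 of DZ against LZ, 11 of the PrePC gate against germinal centre gates, 23 of the PC gate against the PrePC gate, 14 of S against G1, 10 of G2M against G1, 22 of cycling plasma cells, 6 of the interaction, 9 of prePC.Act against either class, 4 of LZtoDZ and 9 of prePC.Mem. All genes called by it were, in that order, 2475 of 5538, 569 of 5447, 1982 of 7150, 2364 of 6564, 777 of 5335, 747 of 5242, 1720 of 5696 and 616 of 8458. For the sums they were 1165 (prePC.Act against germinal centre B cells), 609 (against PC), 308 (LZtoDZ) and 1990 (prePC.Mem) of 11037. On C57BL/6F plates alone they were 6 of plasma against germinal centre B cells, 4 in G1, 2 of the PrePC gate, 1 of the PC gate against the PrePC gate, 4 of the PC gate against germinal centre gates and 4 of S against G1. All genes called there were 1013 of 7387, 796 of 5389, 529 of 6936, 302 of 6278, 953 of 6514 and 78 of 5148. On C57BL/6M plates alone they were 4 in G1, 2 of the PrePC gate, 7 of the PC gate against the PrePC gate, 3 of S against G1, 5 of cycling plasma cells and 0 of the interaction. All genes called there were 960 of 5065, 495 of 6888, 764 of 6245, 171 of 4890, 343 of 5293 and 73 of 8339.

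Scaled by spike-in counts, 8 members were called of plasma against germinal centre B cells, 19 of the PrePC gate, 22 of the PC gate against the PrePC gate, 20 of S, 9 of G2M, 27 of cycling plasma cells, 5 of the interaction, 26 of prePC.Act against germinal centre B cells and 18 against PC, 22 of LZtoDZ and 16 of prePC.Mem. All genes called under this scaling were, in that order, 2148 of 7649, 2481 of 7150, 2699 of 6564, 1184 of 5335, 1263 of 5242, 2717 of 5696 and 489 of 8458. For the sums they were 3239, 1384, 1441 and 2537 of 11037. Sign changes under it were Dck 0.21, Paics 0.76, Adsl 0.87, Adss 0.80, Impdh2 0.91, Hprt 0.83, Tk1 0.73 and Rrm1 0.70 in the PrePC gate, Impdh1 1.23 and Nme2 1.41 in cycling plasma cells, Rrm1 1.72 in prePC.Act, and Hprt 1.89 and Dck 1.85 in LZtoDZ. G1 cells gave 0 calls of the PrePC gate against germinal centre gates, 0 of the PC gate against the PrePC gate and 9 of the PC gate against germinal centre gates, with Dut 0.91 and Rrm2 0.68 (PC against PrePC gate) and Rrm2 3.65 (PC against germinal centre gates) changing sign.

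Thinned cells gave 6 calls in cycling plasma cells, 2 in the interaction and 1 in prePC.Act against PC. All genes called there were 633 of 1801, 224 of 4684 and 158 of 7981. Without the low-count filter the interaction had 5 calls and prePC.Mem 2, with Atic and Mthfd1l lost. All genes called there were 372 of 15728 and 404 of 16026. Without immunoglobulin genes prePC.Act against germinal centre B cells had 1, beside 293 of 10833 genes. Pools per plate of at least 3 cells gave 2 for that comparison (Cad and Impdh1), 1 for LZtoDZ and 23 for prePC.Mem, where Prps2 -9.29, Tk1 -2.56 and Mthfd1 -9.06 changed sign. All genes called with these pools were 462, 633 and 4893 of 10086. Without plate 2 no count moved by over 1.5 times. Without the plate block, the calls were 13 of plasma against germinal centre B cells, 10 in G1, 9 of the PC gate against the PrePC gate and 0 of the interaction, which alone moved. All genes called without the block were 2121 of 7649, 1384 of 5538, 902 of 6564 and 263 of 8458. No paired analysis was possible between C57BL/6M and C57BL/6F because their plate numbers were given in accession order. Pools of at least 10 cells gave no fit for cycling plasma cells and the interaction. Members are sparse, and a member too low for the filter could not be tested.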
